A study of Mus musculus with 8 samples.

Results

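The 10 genes described here encode the granzymes and the other effector molecules with which T cells and NK cells kill or signal: Gzma, Gzmb, Gzmk, Gzmc, Prf1, Nkg7, Fasl, Ifng, Tnfsf10 and Xcl1. They were chosen by symbol, as 10 of the 55450 genes counted, and all 10 were among the 34289 genes with at least 1 UMI (unique molecular identifier, 1 captured mRNA molecule) in a kept cell. Single liver cells of 8 wild-type C57BL/6 mice were measured with the 10x Genomics Chromium 3' kit. The 2 control mice received a normal diet and drinking water, the 3 HFD+F+CCl4 mice a high-fat diet, and the 3 WD+F+CCl4 mice a western diet. Both diet groups also drank a solution of fructose with glucose and were injected with CCl4, a liver toxin, into the peritoneum once a week, so diet, sugar and toxin cannot be told apart within a model. The 2 models together are called NASH mice here, no source used here gives the ages of the animals, and each library is 1 mouse.

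Killer lymphocytes store granzymes, which are serine proteases, together with perforin in lytic granules. Upon contact with a target cell the granules are released, perforin opens the target membrane and the granzymes enter and cut proteins that lead to the death of the cell. A second route uses ligands of the TNF family on the lymphocyte surface, such as Fas ligand and TRAIL, and the same cells secrete interferon-gamma and the chemokine XCL1. The liver is rich in NK cells, NKT cells and related innate lymphocytes that carry this program.

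Promoter sequences are shown for the 4 genes that differed in NK cells between HFD+F+CCl4 and control mice, Gzmc and Xcl1 (higher) and Gzma and Prf1 (lower), to set the genes side by side. Each is 240 bases long and ends 10 bases before the annotated start, taken from RefSeq on GRCm38.p6 and written 5′ to 3′ on the strand of the gene. Capitals mark the core AGGTGT, bound by T-box factors, and the core TGTGGT, bound by Runx factors, each searched on both strands, and no base lay in both motifs. The windows are chr14:56234668-56234907 (minus strand) for Gzmc, chr1:164935533-164935772 (minus strand) for Xcl1, chr13:113100992-113101231 (minus strand) for Gzma and chr10:61297586-61297825 (plus strand) for Prf1.
Gzmc: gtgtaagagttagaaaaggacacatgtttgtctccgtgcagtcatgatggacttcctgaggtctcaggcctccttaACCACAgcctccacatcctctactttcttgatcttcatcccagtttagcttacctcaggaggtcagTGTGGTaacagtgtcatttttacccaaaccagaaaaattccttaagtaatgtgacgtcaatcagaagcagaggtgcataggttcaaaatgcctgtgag
Xcl1: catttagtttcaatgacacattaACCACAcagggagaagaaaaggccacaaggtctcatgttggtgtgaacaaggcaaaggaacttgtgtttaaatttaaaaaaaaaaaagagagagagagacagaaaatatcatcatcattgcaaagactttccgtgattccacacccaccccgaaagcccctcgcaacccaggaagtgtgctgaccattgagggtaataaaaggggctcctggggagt
Gzma: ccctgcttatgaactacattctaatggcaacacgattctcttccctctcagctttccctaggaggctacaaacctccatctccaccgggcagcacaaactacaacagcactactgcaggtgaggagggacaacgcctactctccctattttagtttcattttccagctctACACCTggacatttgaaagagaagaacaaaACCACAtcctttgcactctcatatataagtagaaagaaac
Prf1: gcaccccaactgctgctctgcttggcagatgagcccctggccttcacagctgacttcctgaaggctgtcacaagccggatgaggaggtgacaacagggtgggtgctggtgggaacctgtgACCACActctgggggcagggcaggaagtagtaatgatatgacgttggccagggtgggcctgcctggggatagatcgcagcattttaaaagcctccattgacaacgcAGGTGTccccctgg
The T-box core was present in the promoters of 3 of the 10 genes, with 1 match in Gzma, 1 in Prf1 and 2 in Gzmk, and in 11.5% of all 32534 promoters. The Runx core was present in 6 of the 10 genes, namely Gzma, Gzmb, Gzmc, Prf1, Nkg7 and Xcl1, and in 13.5% of all promoters. Among the printed sequences, both cores were found in Gzma and Prf1, and the Runx core without the T-box core in Gzmc, with 2 matches, and in Xcl1.

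The 10 genes lie on 6 chromosomes of GRCm38 (GENCODE vM21). Gzma (13:113093825-113100981) and Gzmk (13:113171608-113225908) are neighbours on the minus strand, 70.6 kb apart, and Gzmc (14:56231441-56234656) and Gzmb (14:56258838-56262260) are neighbours on the minus strand of chromosome 14, 24.2 kb apart, with no other protein-coding gene in between in either pair. Fasl (1:161780689-161788495) and Xcl1 (1:164931644-164935527) are on chromosome 1, Tnfsf10 (3:27317028-27342427) on chromosome 3, Nkg7 (7:43437073-43438249) on chromosome 7, and Prf1 (10:61297833-61304680) and Ifng (10:118441046-118445892) on chromosome 10. Esm1 overlaps Gzmk and Gm20743 overlaps Xcl1 on the opposite strand. Gm49751 overlaps Ifng on the same strand, so reads shared by the pair may have been lost or moved, and the level of Ifng is uncertain. Gzmc has close relatives in the same cluster, and these had few or no UMIs: Gzmd, Gzme and Gzmn had 0 UMIs in T, NKT-like and NK cells, Gzmf had 7 and Gzmg had 1. Reads shared by such relatives may have been lost here too, so these counts do not show that the genes were silent.

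The libraries held 6135827 UMIs (control replicate 2) to 64855024 UMIs, and 80474 of the 88581 barcodes had more than 500 genes and under 25% mitochondrial UMIs. Of these, 1467 cells (1.82%) carried a barcode sequence that was also kept in another library. Cells were clustered without the 10 genes, and within the 7 clusters led by T or NK markers each cell was gated by its UMIs. T cells had at least 2 UMIs of Cd3d, Cd3e and Cd3g and none of Klrb1c or Ncr1, NKT-like cells had at least 2 CD3 UMIs and 1 of Klrb1c, and NK cells had no CD3 UMI and at least 1 of Klrb1c or Ncr1. This gave 8230 T cells, 2182 NKT-like cells and 966 NK cells, with 1174 cells unresolved. The smallest groups of cells were 56 NK cells in control replicate 2 and 36 NKT-like cells in WD+F+CCl4 replicate 3. Levels are UMIs of a gene scaled to the same total of UMIs for every class and mouse (CPM), and intervals between mice cover animal and technical spread together.

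Some markers that the gates did not count differed between the control and NASH cells of a class. Ncr1, an activating receptor of NK cells and innate lymphoid cells, was at 423 to 919 CPM in NK cells. It is part of the NK gate, so its level is no separate check of the class. Trac, the T cell receptor alpha chain, was at 0 to 20.6 CPM in the NK cells of the NASH mice. In those of the 2 control mice it was at 40.0 and 188 CPM. The gate does not separate conventional NK cells from type 1 innate lymphoid cells: Eomes, a factor of conventional NK cells, was at 270.5 and 130.0 CPM in control NK cells and at 15.0 to 109 CPM in NASH mice. Il7r, a receptor more typical of innate lymphoid cells than of conventional NK cells, was at 144 and 72.2 CPM in control and at 169 to 547 CPM in NASH. Zbtb16, the defining factor of NKT cells, was at 68.6 and 69.4 CPM in control NKT-like cells and at 8.06 to 47.5 CPM in NASH mice, and Trdc, of gamma-delta T cells, was at 99.98 to 169 CPM there, so the class is NKT-like by CD3 and Klrb1c alone. The part of these differences in cell make-up in the results below was not tested.

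Control and NASH cells of one class came largely from different clusters. Cluster 6 held 63.8% of control T cells and cluster 28 held 21.5%, whereas clusters 9 and 10 held 36.1% and 36.5% of T cells in HFD+F+CCl4 mice and 37.3% and 49.1% in WD+F+CCl4 mice. The leading genes of cluster 6 included Il2rb and Cd226, those of cluster 28 Tcf7 and Lef1, and those of cluster 9 Il7r and Trdc. Those of cluster 10 included Cd8a, Gzma, Nkg7 and Gzmk. Over all mice, Gzmk was at 1.96, 1.15, 13 and 250 CPM in clusters 6, 28, 9 and 10. The part of this make-up in the T cell levels below was not tested. For NKT-like cells, cluster 6 held 89.9% of those of control mice, and cluster 9 held 77.4% and 84.2% of those of the 2 models. NK cells lay mostly in cluster 21 in every group (80.5%, 97.3% and 96.7%), but 41 of the 56 NK cells of control replicate 2 lay in the T-like cluster 6. A pair of unnamed clusters came almost only from control mice, cluster 16 with 2024 of 2043 cells from control replicate 2, which made up 48.6% of its kept cells, and cluster 17 with 1859 of 1883 cells from control replicate 1. They held Cd3e at 247 and 274 CPM, both were led by hepatocyte genes, and Alb, which encodes albumin, was at 3443 CPM in cluster 16 and 10209 CPM in cluster 17. Their cells were not gated in the values below. All unnamed clusters together held 39.3% of the Gzma UMIs, 37% of the Prf1 UMIs and 42.1% of the Gzmc UMIs of control replicate 2.

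Most UMIs of the 10 genes came from gated lymphocytes, but from different ones. Over all mice, T cells held 85.5% of the Gzmk UMIs, and NK cells held 64.3% of the Gzmc UMIs although they were the smallest class. Gzma was split between T cells (49.9%) and NK cells (21.9%), Prf1 between T cells (42.1%) and NK cells (25.7%), and Xcl1 between T cells (28.8%), NK cells (28.0%) and NKT-like cells (18.9%). Fasl and Ifng came from T cells (45.5% and 51.9%) and NKT-like cells (22.5% and 20.4%). Tnfsf10 stood apart, with 28.3% of its UMIs in T cells, 23.7% in endothelial-like cells and 10.1% in monocyte and macrophage-like cells. Its endothelial-like share was 61.1% in HFD+F+CCl4 replicate 1, 53.3% in WD+F+CCl4 replicate 3 and 0.463% to 17.4% in the other mice.

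**Figure D1:**
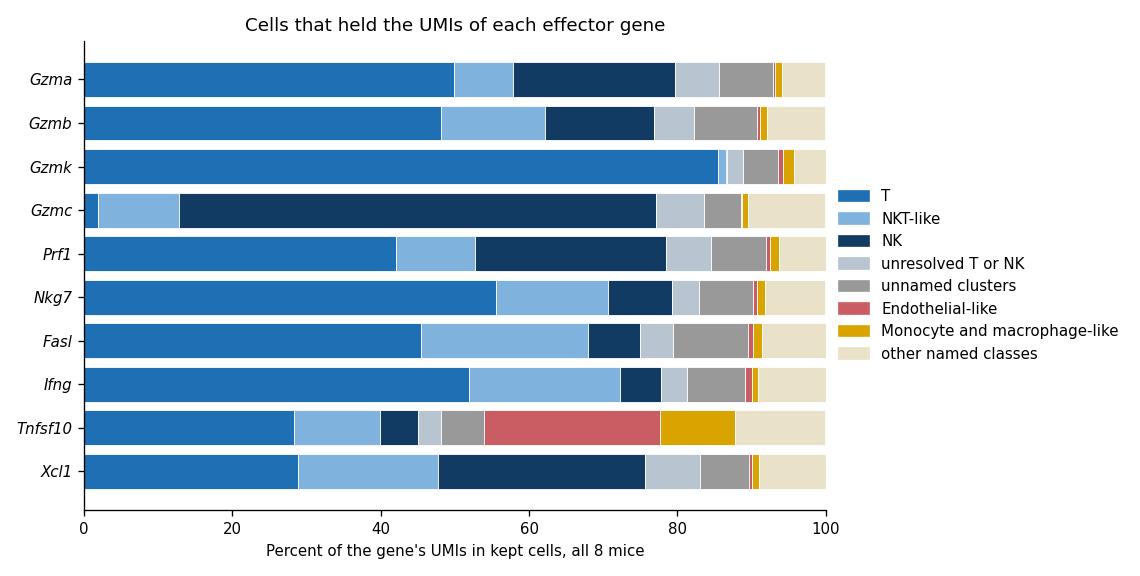
Share of each gene's UMIs (percent of the UMIs in kept cells of all 8 mice, x axis) by the class of cell that held them, with 1 bar per gene. Gzmk UMIs lay in T cells (85.5%), Gzmc UMIs mostly in NK cells (64.3%), and Tnfsf10 had the endothelial-like share of 23.7%. That share ran from 0.463% to 61.1% between mice.

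These shares over all mice hide differences between groups and between mice. NK cells held 12.7% of the Gzmc UMIs of control mice, where NKT-like cells held 30.7%, and 81.8% of those of HFD+F+CCl4 mice and 66.0% of those of WD+F+CCl4 mice. For Prf1, T cells held 11.2% and NK cells 31.9% in control, 78.1% and 9.23% in HFD+F+CCl4 and 41.0% and 38.3% in WD+F+CCl4. For Xcl1, NKT-like cells held 37.0% and NK cells 7.94% in control, against 7.07% and 32.9% in HFD+F+CCl4 and 10.7% and 43.2% in WD+F+CCl4. The T cell share of the Gzma UMIs varied widely between mice, from 6.53% and 10.7% in the control mice to 38.1%, 82.9% and 87.9% in the HFD+F+CCl4 mice. In the WD+F+CCl4 mice it was 8.75%, 34.2% and 74.7%, highest in replicate 3. NK cells held 40.3% and 7.74% of the Gzma UMIs in the control mice, 40.3%, 3.75% and 4.03% in the HFD+F+CCl4 mice. In the WD+F+CCl4 mice they held 62.7%, 37.9% and 15.4%. These shares move with the number of cells of each class as well as with the level per cell, and no test was made of them.

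Over whole libraries, Gzma was at 338 and 439 CPM in the control mice and at 3.58 to 222 CPM in the 6 NASH mice, and Xcl1 at 206 and 217 CPM against 19.7 to 75.3 CPM. NKT-like cells made up 13.8% and 3.74% of kept cells in control and 0.307% to 1.16% in NASH. The share of T cells overlapped, at 20.6% and 8.23% in control and 3.03% to 12.5% in NASH. In control replicate 2, unnamed clusters held 39.3% of the Gzma UMIs and 37.6% of the Xcl1 UMIs. The values below are levels within a class, to which its number of cells does not add.

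As a mean over the 8 mice, NK cells were the highest of 22 cell classes for 6 genes. Gzma was at 2392 ± 2037 CPM (SD, n = 8) in NK cells, and the NK level was above the T cell level in 6 of 8 mice and above the NKT-like level in 8 of 8. Prf1, which encodes perforin, was at 324 ± 220 CPM (SD, n = 8) in NK cells, above T cells in 8 of 8 mice. Gzmc, a granzyme made by activated killer cells, was at 486 ± 361 CPM (SD, n = 8) in NK cells, above T and NKT-like cells in 8 of 8 mice each. Gzmb, the granzyme that activates caspases, was at 386 ± 218 CPM (SD, n = 8), above T cells in 6 of 8 mice. Nkg7, a granule membrane protein, was at 1735 ± 513 CPM (SD, n = 8), above T cells in 6 of 8.

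Xcl1, the chemokine that attracts cross-presenting dendritic cells through Xcr1, had the clearest order: 2109 ± 816 CPM (SD, n = 8) in NK cells, 685 ± 305 CPM in NKT-like cells and the lowest level of the 3 classes in T cells. This order held in 8 of 8 mice, and the median ratio was 8.51 between NK and T cells and 2.61 between NKT-like and T cells. The ranges over mice did not overlap between NKT-like and T cells, but those of NK and NKT-like cells did. For the other genes, the ranges of the leading class and of the next class overlapped as well.

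The other 4 genes had other leading classes. Gzmk, a granzyme of memory-like T cells, was highest in T cells, at 90.5 ± 109 CPM (SD, n = 8), and had 33 UMIs in all NKT-like cells and 5 in all NK cells. Fasl, the ligand of the death receptor Fas, was at 71.2 ± 20.4 CPM (SD, n = 8) in NKT-like cells and at 67.0 ± 22.9 CPM in NK cells, and the order held in only 3 of 8 mice. Ifng, which encodes interferon-gamma, was at 82.0 ± 69.1 CPM (SD, n = 8) in NKT-like cells and at 65.9 ± 46.1 CPM in NK cells, and the order held in 6 of 8 mice. Tnfsf10, which encodes TRAIL, was at 129 ± 56.3 CPM (SD, n = 7) in endothelial-like cells and at 107 ± 35.1 CPM (SD, n = 8) in NK cells, with endothelial-like cells above NK cells in 3 of 7 mice. For Fasl, Ifng and Tnfsf10 the ranges over mice of these neighbours overlapped.

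**Figure D2:**
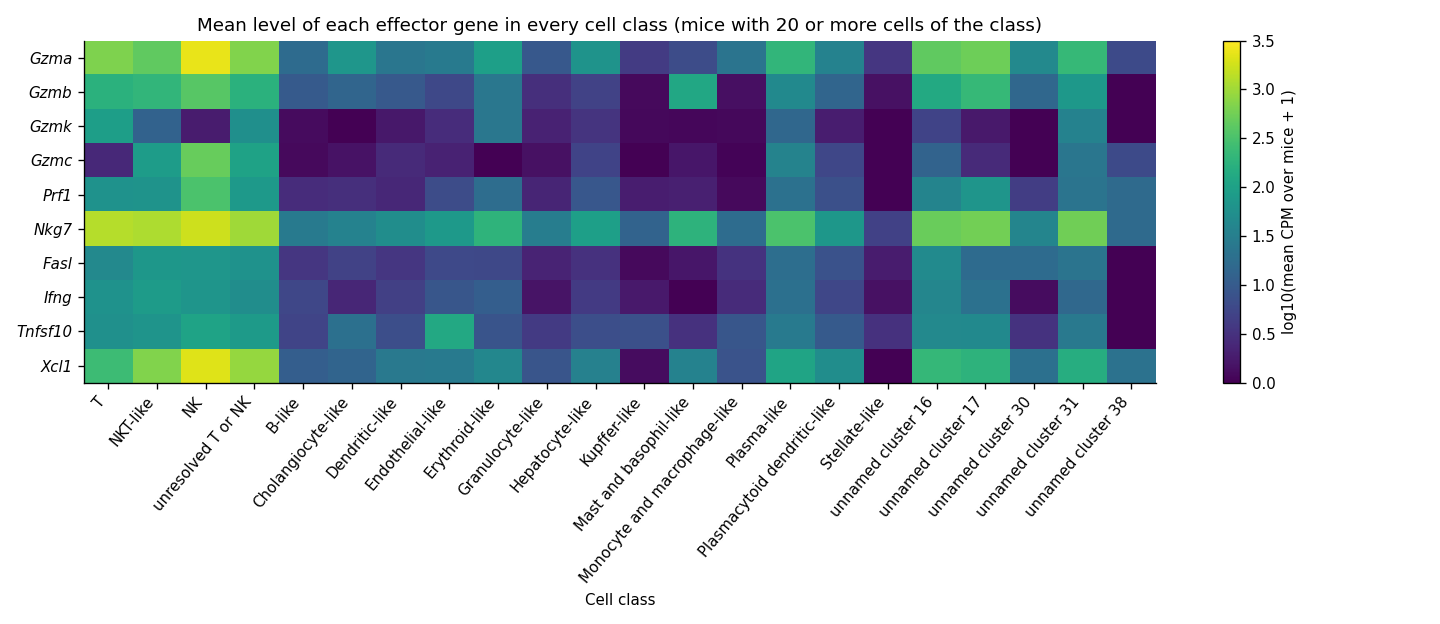
Mean level of each gene in each of 22 cell classes, on a colour scale of log10(mean CPM over mice + 1), over the mice with at least 20 cells of the class. The brightest class is T, NKT-like or NK cells, on the left, for every gene but Tnfsf10, for which it is endothelial-like cells (129 CPM).

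Outside the T and NK classes, some signals came largely from a single mouse. Dendritic-like cells held 10.3% of the Xcl1 UMIs of WD+F+CCl4 replicate 2 and 0.177% to 2.69% of those of the other mice. Gzma in cholangiocyte-like cells reached 441 CPM in its highest mouse, with a mean of 67.3 CPM over 7 mice. Gzmb was at 808 CPM in the mast and basophil-like cells of control replicate 1, which numbered 20. In those of the 6 NASH mice it was at 0 to 48.2 CPM, with 112 UMIs over all mice. Control replicate 2 had too few such cells to be counted. That cluster was led by Elane, Prtn3, Mpo, Ctsg and Mcpt8, serine proteases and a peroxidase of immature granulocytes and of basophils. In the unnamed cluster 17, led by hepatocyte genes, Gzma was at 396 CPM in control replicate 1, against 94.3 CPM in the gated T cells of that mouse.

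Tests between groups were made on UMIs summed per mouse and class, with edgeR's quasi-likelihood test in 1 fit of the 8 mice and Benjamini-Hochberg adjustment over all genes tested in the class, and an adjusted p under 0.05 counts as called. In each class 9 of the 10 genes had enough UMIs to be tested, Gzmc being too low in T cells (48 UMIs) and Gzmk in NKT-like and NK cells. Both models were compared with the same 2 control mice, so their results are not independent of each other. Each comparison with control rests on 2 control mice, and calls that were lost without a mouse are named beside their values.

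In NK cells, Gzmc and Xcl1 were higher in both models, and Gzma and Prf1 were lower in HFD+F+CCl4 mice. The test called 4 of 9 genes between HFD+F+CCl4 and control, 2 higher and 2 lower, where it called 2.44% of 6264 genes higher and 1.05% lower. Between WD+F+CCl4 and control it called 2 of 9 genes, both higher, where 3.85% of all genes were called higher and 2.38% lower. The median log2 fold change of the 9 genes was -0.44 in HFD+F+CCl4 and 0.08 in WD+F+CCl4, against 0.02 for all genes in both comparisons.

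Gzmc in NK cells was at 34.5 and 57.8 CPM in the control mice, at 182, 706.5 and 398 CPM in the HFD+F+CCl4 mice and at 846, 895 and 769 CPM in the WD+F+CCl4 mice. The 6 NASH mice all lay above both control mice, and the WD+F+CCl4 mice all lay above the HFD+F+CCl4 mice. The log2 fold change against control was 3.49 ± 0.52 (SE, adjusted p = 0.00183 by edgeR), or 11.2-fold, in HFD+F+CCl4 and 4.53 ± 0.53 (SE, adjusted p = 0.000155 by edgeR), or 23.1-fold, in WD+F+CCl4. Few control cells stood behind the low level, with 25 UMIs in 7 of 293 cells of control replicate 1 and 4 UMIs in 4 of 56 cells of control replicate 2. In the WD+F+CCl4 mice 43 of 170, 38 of 114 and 22 of 77 NK cells held a Gzmc UMI. A few cells held many, and in WD+F+CCl4 replicate 1 a single cell held 174 of the 656 UMIs. Without control replicate 1 the HFD+F+CCl4 difference was 3.07 and no longer passed. The WD+F+CCl4 difference passed in each of its 18 alternatives, some of which left a single control mouse.

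Xcl1 in NK cells was at 847 and 925 CPM in the control mice, at 1776, 2568 and 2747 CPM in the HFD+F+CCl4 mice and at 2630, 2713 and 2662 CPM in the WD+F+CCl4 mice. All NASH mice lay above both control mice, and the 2 models overlapped. The log2 fold change was 1.48 ± 0.24 (SE, adjusted p = 0.00283 by edgeR) in HFD+F+CCl4 and 1.72 ± 0.24 (SE, adjusted p = 0.000663 by edgeR) in WD+F+CCl4, which is 2.8-fold and 3.3-fold. Both passed in all 18 alternatives each, some of which left a single control mouse. The share of NK cells with an Xcl1 UMI moved in the same direction. After each cell was thinned to 800 UMIs it was 27.3% and 38.5% in the control mice, 52.2% to 60.2% in HFD+F+CCl4 and 57.1% to 64.6% in WD+F+CCl4, against at most 4.11% in B-like cells, which should lack the gene. In control replicate 2 it was 9.76% in plasmacytoid dendritic-like cells and 9.52% in endothelial-like cells.

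Gzma in NK cells was at 6740 and 2601 CPM in the control mice, at 212, 889.9 and 1468 CPM in the HFD+F+CCl4 mice and at 3102, 1191 and 2934 CPM in the WD+F+CCl4 mice. The HFD+F+CCl4 mice lay below both control mice, and the WD+F+CCl4 mice lay on either side of control replicate 2. The log2 fold change was -2.43 ± 0.57 (SE, adjusted p = 0.0272 by edgeR), or 5.38-fold lower, in HFD+F+CCl4 and -0.87 ± 0.56 (SE, adjusted p = 0.393 by edgeR) in WD+F+CCl4. The HFD+F+CCl4 call was lost without control replicate 1 (-1.40) and without HFD+F+CCl4 replicate 2 (-2.44, adjusted p = 0.083 by edgeR), and DESeq2 did not call it (adjusted p = 0.191). It was also lost with a replicate block, with cells gated on UMIs thinned to 800 and with the gate applied in every cluster.

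Prf1 in NK cells was at 744 and 376 CPM in the control mice, at 59.8, 177 and 219 CPM in the HFD+F+CCl4 mice and at 308, 188 and 518 CPM in the WD+F+CCl4 mice. As for Gzma, the HFD+F+CCl4 mice lay below both control mice and the WD+F+CCl4 mice overlapped the controls. Against control, the log2 fold change was -1.94 ± 0.46 (SE, adjusted p = 0.0267 by edgeR), or 3.83-fold lower, in HFD+F+CCl4 and -0.74 ± 0.44 (SE, adjusted p = 0.344 by edgeR) in WD+F+CCl4. The HFD+F+CCl4 call was lost without control replicate 1 (-1.11), without HFD+F+CCl4 replicate 1 (-1.57, adjusted p = 0.0605 by edgeR) and without HFD+F+CCl4 replicate 2 (-2.04, adjusted p = 0.0611 by edgeR). DESeq2 did not call it (adjusted p = 0.216), and it was lost with cells gated on UMIs thinned to 800 and with the gate applied in every cluster. Without control replicate 1, the HFD+F+CCl4 calls of Gzma, Prf1 and Gzmc were lost and that of Xcl1 was not. That fit held a single control mouse, and calls fell over all genes too.

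The other NK genes did not pass against control. Gzmb was at 442 and 535 CPM in the control mice, at 98.7, 166 and 258 CPM in the HFD+F+CCl4 mice and at 749, 302 and 535 CPM in the WD+F+CCl4 mice. All HFD+F+CCl4 mice lay below both other groups, with a log2 fold change of -1.39 against control (adjusted p = 0.0621 by edgeR and 0.0464 by DESeq2). Fasl was at 91.1 and 101 CPM in the control mice, at 35.9 to 79.0 CPM in HFD+F+CCl4 and at 49.0 to 53.5 CPM in WD+F+CCl4, below both controls in all 6 NASH mice, with log2 fold changes of -0.54 (adjusted p = 0.466 by edgeR) and -0.78 (adjusted p = 0.194 by edgeR). Ifng ranged from 24.3 to 158.5 CPM, Tnfsf10 from 69.0 to 161.5 CPM and Nkg7 from 1064 to 2472 CPM, with overlapping groups.

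**Figure D3:**
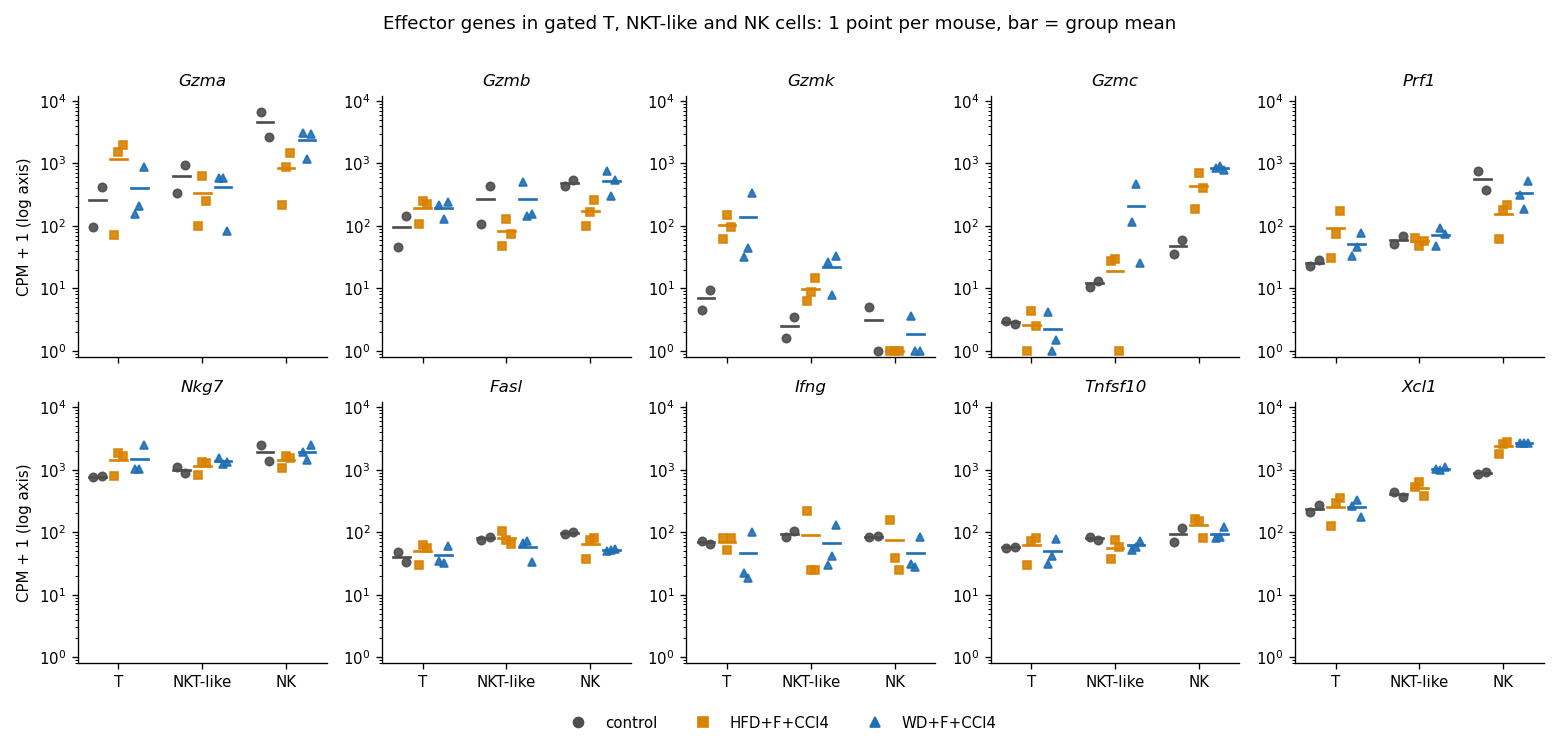
Level of each gene in gated T, NKT-like and NK cells, as CPM + 1 on a log axis, with 1 point per mouse and a bar at the group mean (2 mice in control and 3 in each model). In NK cells the NASH mice lie above both control mice for Gzmc and Xcl1, and the HFD+F+CCl4 mice lie below both for Gzma and Prf1.

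RNA of other cells moved with the groups in NK cells. The summed level of 5 hepatocyte genes was 1484 and 1546 CPM in control and 22.4 to 655.5 CPM in NASH mice, and that of 5 myeloid genes was 246 and 2052 CPM in control and 2119 to 3888 CPM in NASH. In thinned B-like cells, which hold free RNA as well, the share of cells with a Gzmc UMI was at most 0.0707% in any mouse and that with a Prf1 UMI at most 0.685%, whereas a Gzma UMI was found in 7.53% of those of control replicate 2. Some other classes held more in that mouse. There a Prf1 UMI was found in 3.17% of endothelial-like and 1.95% of plasmacytoid dendritic-like cells, and a Gzmc UMI in 1.61% of dendritic-like cells. Without cells that carried UMIs of another lineage, or with NK cells taken only from cluster 21, all 4 calls of HFD+F+CCl4 against control and both of WD+F+CCl4 stayed. In the second of these settings control replicate 2 dropped out with 11 cells, so control replicate 1 stood alone, its spread was taken to be that of the other groups, and the setting cannot show how far the calls rest on that mouse.

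At equal depth, the share of NK cells with a UMI ran in the direction of the level for Gzma and Gzmc, and overlapped between groups for Prf1. After thinning, a Gzma UMI was found in 72.0% and 41.0% of control NK cells, in 3.88% to 20.9% in HFD+F+CCl4 mice and in 15.9% to 33.5% in WD+F+CCl4 mice, and before thinning in 76.5% and 48.2%, 4.81% to 27.9% and 21.1% to 39.4%. A Prf1 UMI was found after thinning in 37.4% and 15.4%, in 5.83% to 17.9% and in 12.4% to 22.1%, so control replicate 2 lay within the range of both models. A Gzmc UMI was found in 1.73% and 7.69% of control cells, in 8.74% to 23.8% in HFD+F+CCl4 and in 14.1% to 21.2% in WD+F+CCl4. Thinning left out 17 of the 56 NK cells of control replicate 2, the shallowest library, and at most 4 in any other mouse.

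**Figure D4:**
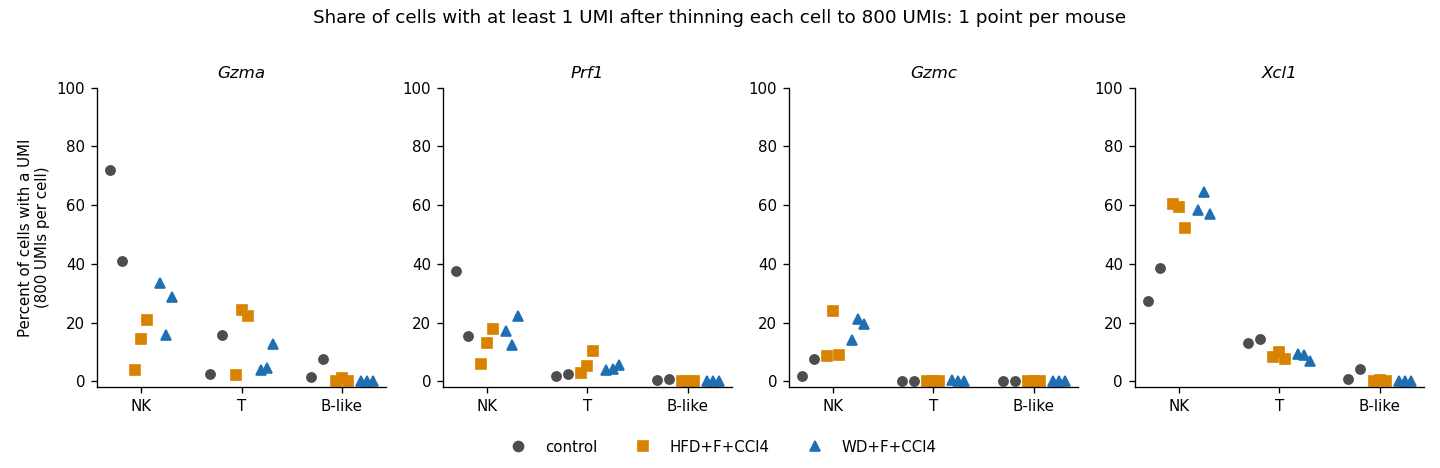
Percent of NK, T and B-like cells with at least 1 UMI of Gzma, Prf1, Gzmc and Xcl1 after each cell was thinned to 800 UMIs, with 1 point per mouse. NK cells with Gzma ran from 3.88% to 72.0%, and B-like cells, shown as 1 gauge of free RNA, reached 7.53% for Gzma and 4.11% for Xcl1. Some classes not shown held more, such as plasmacytoid dendritic-like cells with up to 9.76% for Xcl1.

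Within NK cells, Gzma and Prf1 tended to lie in the same cells, and Xcl1 in others. In control mice 46.0% of the 224 cells with a Gzma UMI also held a Prf1 UMI, against 10.6% of the 104 cells without one, and the shares were 53.3% against 5.80% in HFD+F+CCl4 and 46.4% against 5.70% in WD+F+CCl4. The direction was the same in each of the 8 mice taken alone. Xcl1 went the other way, also in each of the 8 mice, being found in 18.3% of the cells with Gzma and 51.0% of those without it in control mice, in 30% and 61.6% in HFD+F+CCl4 and in 36.1% and 68.8% in WD+F+CCl4.

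Gzmc was found with Xcl1 in most NASH mice. In the WD+F+CCl4 mice Xcl1 was in 79.2%, 87.5% and 93.3% of the 24, 24 and 15 cells with a Gzmc UMI, against 54.8%, 58.4% and 48.4% of the cells without one. In the HFD+F+CCl4 mice it was in 7 of 9, 11 of 20 and 6 of 6 cells with Gzmc, against 58.5%, 60.9% and 47.5%, so replicate 2 did not share the direction. Gzma was found in 12.7% of the cells with Gzmc and 30% of the others in WD+F+CCl4 and in 5.71% and 12.8% in HFD+F+CCl4, and Gzmb in 41.3% and 21.2% and in 28.6% and 8.22%. Both directions were seen in each of the 6 NASH mice. These shares are of thinned cells, rest on few cells in some mice, and were not tested.

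Between the 2 models no gene was called in NK cells. The test called 0 of 9 genes of WD+F+CCl4 against HFD+F+CCl4 and 0% of all genes in each direction, although 4 of the 9 had an unadjusted p under 0.05 by edgeR, and DESeq2 called 1, Gzmb. The log2 differences were 1.67 for Gzmb (adjusted p = 0.385 by edgeR), 1.56 for Gzma (adjusted p = 0.746), 1.19 for Prf1 (adjusted p = 0.803) and 1.04 for Gzmc (adjusted p = 0.687), all with the WD+F+CCl4 mice higher. So Gzma and Prf1 passed against control in HFD+F+CCl4 and not in WD+F+CCl4, but the difference between the models did not pass.

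In NKT-like cells, Gzmc and Xcl1 were higher in WD+F+CCl4 mice. The test called 2 of 9 genes between WD+F+CCl4 and control, where 2.90% of 6577 genes were called higher and 2.87% lower, and 0 of 9 between HFD+F+CCl4 and control, where 2.02% were called higher and 1.54% lower. In the comparison with 0 calls, 1 gene (Gzmb) had an unadjusted p under 0.05 by edgeR, and DESeq2 called 0. The median log2 fold change of the 9 genes was 0.06 in HFD+F+CCl4 and 0.40 in WD+F+CCl4, against 0.01 and -0.01 for all genes.

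Xcl1 in NKT-like cells was at 447 and 372 CPM in the control mice, at 538, 628 and 381 CPM in the HFD+F+CCl4 mice and at 1034, 993 and 1089 CPM in the WD+F+CCl4 mice. All WD+F+CCl4 mice lay above the other 5 mice, and HFD+F+CCl4 overlapped control. The log2 fold change of WD+F+CCl4 was 1.45 ± 0.24 (SE, adjusted p = 0.0013 by edgeR) and that of HFD+F+CCl4 was 0.41 ± 0.23 (SE, adjusted p = 0.44 by edgeR). The share of cells did not follow the level, with 24.5% to 33.1% of the thinned cells holding a UMI in WD+F+CCl4 and 24.3% and 26.7% in control. In WD+F+CCl4 replicate 3 a single cell held 77 of the 135 UMIs, and in replicates 1 and 2 a single cell held 27.9% and 23.4%. With NKT-like cells taken only from outside cluster 21, the log2 fold change was 1.06 (adjusted p = 0.07 by edgeR).

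Gzmc in NKT-like cells was at 9.65 and 12.4 CPM in the control mice, at 26.4, 28.7 and 0 CPM in the HFD+F+CCl4 mice and at 115, 471 and 24.2 CPM in the WD+F+CCl4 mice. The WD+F+CCl4 mice lay above both control mice, but the lowest of them lay within the range of HFD+F+CCl4. Its log2 fold change was 4.53 ± 0.76 (SE, adjusted p = 0.00141 by edgeR) in WD+F+CCl4 and 3.17 (adjusted p = 0.0131) without WD+F+CCl4 replicate 2. In that mouse 5 of 98 cells held the 138 UMIs, and 1 of these cells held 79. Without cells with UMIs of another lineage the log2 fold change was 2.04 (adjusted p = 0.174 by edgeR), and DESeq2 gave an adjusted p of 0.0921. Cluster 21 held 9.89% of the NKT-like cells of WD+F+CCl4 mice. With NKT-like cells taken only from outside it, Gzmc was too low to be tested. Hepatocyte RNA moved with the groups here too, from 1344 and 1769 CPM in control to 17.1 to 707 CPM in NASH.

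The other genes in NKT-like cells overlapped between groups or did not pass. Gzma was at 331 and 934 CPM in control, at 100.2 to 638.5 CPM in HFD+F+CCl4 and at 80.6 to 593.5 CPM in WD+F+CCl4. Gzmb was at 106 and 428.5 CPM, at 47.5 to 128 CPM and at 143 to 502 CPM, with a log2 fold change of -1.37 in HFD+F+CCl4 (adjusted p = 0.243 by edgeR). Nkg7 was at 1110 and 879 CPM in control, at 833 to 1313 CPM in HFD+F+CCl4 and at 1245 to 1529 CPM in WD+F+CCl4, above both control mice in all 3, with a log2 fold change of 0.58 (unadjusted p = 0.0364 and adjusted p = 0.227 by edgeR). Tnfsf10 was at 82.7 and 74.3 CPM in control and at 36.9 to 73.0 CPM in NASH, below both control mice in all 6, with log2 fold changes of -0.37 (adjusted p = 0.612 by edgeR) and -0.33 (adjusted p = 0.583). Prf1 lay between 46.1 and 92.1 CPM in all mice, Fasl between 32.2 and 105.5 CPM and Ifng between 23.4 and 221.5 CPM. Between the models the test called 0 of 9 genes, where 0% of all genes were called higher and 0.0152% lower, while 3 of the 9 had an unadjusted p under 0.05 by edgeR and DESeq2 called 1, Xcl1. The log2 differences of these 3 were 3.70 for Gzmc (adjusted p = 0.176 by edgeR), 1.77 for Gzmb (adjusted p = 0.591) and 1.04 for Xcl1 (adjusted p = 0.176), with WD+F+CCl4 higher.

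In T cells, Gzmk was higher in WD+F+CCl4 mice, and the other granule genes had fold changes above 0 that did not pass. The test called 1 of 9 genes between WD+F+CCl4 and control, where 2.22% of 12394 genes were called higher and 2.09% lower. Between HFD+F+CCl4 and control it called 0 of 9, where 2.82% were called higher and 1.61% lower, while 3 of the 9 had an unadjusted p under 0.05 by edgeR and DESeq2 called 1, Gzmk. The median log2 fold change of the 9 genes was 0.92 in both comparisons, against 0.01 for all genes.

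Gzmk in T cells was at 3.46 and 8.55 CPM in the control mice, at 60.1, 151 and 94.8 CPM in the HFD+F+CCl4 mice and at 30.5, 43.4 and 333 CPM in the WD+F+CCl4 mice. All 6 NASH mice lay above both control mice, and WD+F+CCl4 replicate 3 was far above the other 2 of its group. The log2 fold change was 5.12 ± 1.22 (SE, adjusted p = 0.045 by edgeR) in WD+F+CCl4 and 4.61 ± 1.22 (SE, adjusted p = 0.0627 by edgeR) in HFD+F+CCl4. A Gzmk UMI was found in 22 of 2225 and 5 of 343 control T cells, in 35 of 339, 291 of 1085 and 264 of 1335 in the HFD+F+CCl4 mice and in 48 of 636, 74 of 902 and 612 of 1365 in the WD+F+CCl4 mice. After thinning to 800 UMIs the shares were 0.271% and 0.68% in control, 3.54% to 9.92% in HFD+F+CCl4 and 2.2% to 21% in WD+F+CCl4, against at most 0.23% in B-like cells. The WD+F+CCl4 value was 3.31 without WD+F+CCl4 replicate 3 (adjusted p = 0.0165 by edgeR). It did not pass without control replicate 1 (4.25, adjusted p = 0.298 by edgeR), control replicate 2 (adjusted p = 0.132), WD+F+CCl4 replicate 2 (adjusted p = 0.0636), HFD+F+CCl4 replicate 2 (adjusted p = 0.0574) or HFD+F+CCl4 replicate 3 (adjusted p = 0.052).

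CD8 and CD4 T cells both carried Gzmk. Among gated T cells with a Cd8a or Cd8b1 UMI and no Cd4 or Trdc UMI, which numbered 2626, Gzmk was at 5.16 and 33.7 CPM in control mice, at 97.5, 261 and 179 CPM in HFD+F+CCl4 mice and at 64.5, 82.8 and 227 CPM in WD+F+CCl4 mice. Among the 1580 T cells with Cd4 and without the others it was at 6.05 and 0 CPM, at 130.3, 30.9 and 23.6 CPM and at 9.69, 29.7 and 449 CPM, so the high level of WD+F+CCl4 replicate 3 lay in both kinds and was higher in CD4 T cells. In gamma-delta T cells only 1 Gzmk UMI was found in 516 cells. The CD8 share differed between mice, with 370 of 2225 and 72 of 343 T cells in that gate in the control mice, 65 of 339, 548 of 1085 and 552 of 1335 in the HFD+F+CCl4 mice and 209 of 636, 293 of 902 and 517 of 1365 in the WD+F+CCl4 mice, and its part in the T cell levels was not tested.

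Gzma in T cells was at 94.3 and 424 CPM in the control mice, at 69.4, 1493 and 1975 CPM in the HFD+F+CCl4 mice and at 153, 206 and 868 CPM in the WD+F+CCl4 mice. The spread was widest in HFD+F+CCl4, where replicate 1 was below both controls, and the groups overlapped. Against control, the log2 fold change was 2.36 ± 1.19 (SE, adjusted p = 0.299 by edgeR) in HFD+F+CCl4 and 0.92 ± 1.13 (SE, adjusted p = 0.688 by edgeR) in WD+F+CCl4. CD8 T cells held 20109 of the 21713 Gzma UMIs of T cells. Among them Gzma was at 214 and 991 CPM in control, at 268, 2777 and 3970 CPM in HFD+F+CCl4 and at 280.5, 461 and 2286 CPM in WD+F+CCl4.

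Prf1, Gzmb and Nkg7 in T cells did not pass. Prf1 was at 21.7 and 27.4 CPM in the control mice, at 30.04, 72.4 and 170.1 CPM in the HFD+F+CCl4 mice and at 32.3, 44.7 and 76.6 CPM in the WD+F+CCl4 mice. All NASH mice lay above both control mice, with log2 fold changes of 2.02 ± 0.64 (SE, adjusted p = 0.106 by edgeR) and 1.28 ± 0.63 (SE, adjusted p = 0.272 by edgeR). Gzmb was at 45.8 and 144 CPM in control and at 108 to 245 CPM in the NASH mice, with log2 fold changes of 1.25 (adjusted p = 0.178 by edgeR) and 1.39 (adjusted p = 0.131). Nkg7 was at 758 and 793 CPM in control and at 801 to 2451 CPM in the NASH mice, above both control mice in all 6, with log2 fold changes of 0.92 (adjusted p = 0.272 by edgeR) and 1.11 (adjusted p = 0.177). In CD8 T cells Nkg7 was at 683 and 822 CPM in control and at 1332 to 3281 CPM in NASH.

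Fasl, Ifng, Tnfsf10 and Xcl1 did not pass in T cells taken as 1 class. Their log2 fold changes lay between -0.40 and 0.29 in the comparisons with control, with adjusted p values of 0.735 to 0.998 by edgeR, and an adjusted p of this size does not show that the levels were equal. Xcl1 was at 206 and 267 CPM in control and at 126 to 349 CPM in NASH. In CD4 T cells Xcl1 was at 162 and 372 CPM in control and lower in every NASH mouse, at 9.69 to 114 CPM. In CD8 T cells it was at 68.5 and 216 CPM in control and at 130 to 637 CPM in NASH, with overlap. Fasl in CD8 T cells was at 8.10 and 27.0 CPM in control and at 28.4 to 91.1 CPM in NASH, while in CD4 T cells it overlapped. These kinds of T cell were not tested. Ifng in all T cells was at 70.3 and 65.0 CPM in control, at 51.8 to 78.7 CPM in HFD+F+CCl4 and at 21.4, 17.6 and 99.2 CPM in WD+F+CCl4. The WD+F+CCl4 mice thus lay on either side of the controls. In CD8 T cells, also not tested, Ifng was at 11.8 and 27.0 CPM in control. It was at 93.4, 84.4 and 136 CPM there in HFD+F+CCl4 and at 24.9, 23.2 and 119 CPM in WD+F+CCl4. Between the models the test called 0 of 9 genes and 0% of all genes in each direction, 0 of the 9 had an unadjusted p under 0.05 by edgeR, and DESeq2 called 0. The largest of these log2 differences was -1.44 for Gzma (adjusted p = 1 by edgeR).

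**Figure D5:**
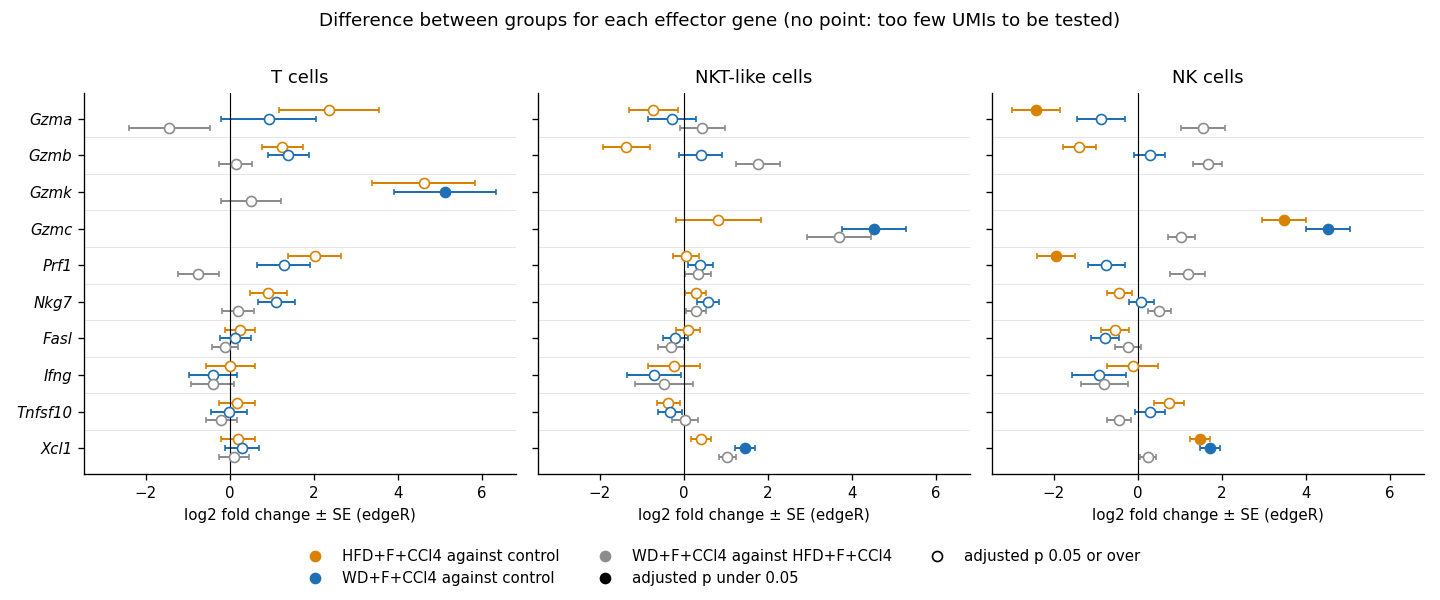
Log2 fold change ± SE (x axis) of each gene in T, NKT-like and NK cells for HFD+F+CCl4 against control, WD+F+CCl4 against control and WD+F+CCl4 against HFD+F+CCl4, with filled points where the edgeR adjusted p was under 0.05. The filled points are Gzmk in T cells (5.12), Gzmc (4.53) and Xcl1 (1.45) in NKT-like cells, and Gzmc, Xcl1, Gzma and Prf1 in NK cells.

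Gzmk and Gzma met in part of the T cells, to a degree that differed between mice. Among thinned T cells with a Gzmk UMI, Gzma was in 0 of 12, 60 of 107 and 63 of 92 in the HFD+F+CCl4 mice, against 2.14%, 20.9% and 18.7% of the cells without one. In the WD+F+CCl4 mice it was in 3 of 14, 6 of 28 and 40 of 287, against 3.38%, 3.81% and 12.3%, so replicate 3, which gave most of the Gzmk cells, showed little difference. Nkg7 was found in 64.3% to 87.9% of the cells with Gzmk and in 31.2% to 71.6% of those without it, higher with Gzmk in each of the 6 NASH mice. These shares were not tested.

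Genes of 3 lists around the effectors were also tested. In the comparisons with control, 2.02% to 3.85% of all genes were called higher and 1.05% to 2.87% lower, depending on class and model. Of 17 granule partners (other granzymes, proteins that process granzymes or protect the cell, and the machinery of granule release), 12 were tested in T cells, 10 in NKT-like cells and 11 in NK cells, and none was called lower. Ctsc, the cathepsin that activates granzymes, was higher in T cells in HFD+F+CCl4 (log2 fold change 1.22, adjusted p = 0.0198 by edgeR) and was the only granule partner called there, while 0 were called in T cells in WD+F+CCl4. Ctsc was also higher in NKT-like cells in both models (1.12, adjusted p = 0.0342, and 1.05, adjusted p = 0.037), alone in HFD+F+CCl4 and with Cst7, an inhibitor of cathepsins, in WD+F+CCl4 (1.15, adjusted p = 0.0166). In NK cells Lamp1, a membrane protein of lysosomes and lytic granules, was higher in HFD+F+CCl4 (1.70, adjusted p = 0.00719) and in WD+F+CCl4 (1.41, adjusted p = 0.0158), where Ctsc was higher as well (1.06, adjusted p = 0.0433). The list's median log2 fold change lay between 0.06 and 0.32 in these comparisons with control, against -0.01 to 0.02 for all genes. Lamp1 and Ctsc are also made by macrophages, and the summed myeloid level in NK cells and T cells was higher in NASH (in T cells 326 and 935 CPM in control and 944 to 2289 CPM in NASH). The part of this myeloid level in these calls, and in those of the other lists below, was not tested.

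Of 12 receptors and signalling genes downstream of the effectors, 2 of 11 tested were lower in T cells in each model. There 1.61% and 2.09% of all genes were called lower. In NKT-like cells 1 of 7 was lower in each model, where 1.54% and 2.87% of all genes were called lower. Of these, Jak2, a kinase of interferon-gamma signalling, was lower in T cells in both models (-0.83, adjusted p = 0.0314 by edgeR, and -0.83, adjusted p = 0.0306). In NK cells 0 of 9 were called in HFD+F+CCl4, where 2.44% of all genes were called higher and 1.05% lower. In WD+F+CCl4, 1 was higher, Ifngr2, a chain of the interferon-gamma receptor (2.50, adjusted p = 0.0494), and 1 was lower, Jak2 (-1.25, adjusted p = 0.0439). Over all genes 3.85% were called higher there and 2.38% lower.

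Of 12 regulators, transcription factors and cytokine receptors that control the effector genes, all were tested in each class. In T cells 2 were higher and 3 lower in HFD+F+CCl4, where 2.82% of all genes were called higher and 1.61% lower. Among them were the transcription factors Prdm1 (2.28, adjusted p = 0.0462 by edgeR) and Zeb2 (1.83, adjusted p = 0.00953). Il12rb2, a receptor chain for interleukin-12, was lower (-1.95, adjusted p = 0.0468). Cluster 25, led by Tnfrsf4 and Foxp3, held 3.12% of control T cells and 16.6% of those in HFD+F+CCl4, and its part was not tested. In WD+F+CCl4, 1 was higher in T cells, Zeb2 (1.41, adjusted p = 0.0219), and 2 were lower, Tbx21, which encodes T-bet (-1, adjusted p = 0.0367), and Il2rb, a receptor chain for interleukin-2 and interleukin-15 (-1.03, adjusted p = 0.0118). There 2.22% of all genes were called higher and 2.09% lower. In NKT-like cells Eomes was the 1 regulator called, higher in both models (2.16, adjusted p = 0.0265, and 2.37, adjusted p = 0.0102), where 2.02% and 2.90% of all genes were called higher. In NK cells 0 of 12 were called in either model, and the median log2 fold changes were -0.55 and -0.62, against 0.02 for all genes in both. There 2.44% of all genes were called higher and 1.05% lower in HFD+F+CCl4, and 3.85% and 2.38% in WD+F+CCl4. No gene of the 3 lists was called between the 2 models in any class. Over all genes, 0% were called there in T and NK cells, and 0% higher and 0.0152% lower in NKT-like cells.

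By the Pearson r of log2(CPM + 1) over the 22 cell classes among 13618 genes, Gzma was most like Il2rb (r = 0.981), Cd160 (0.978) and Gm2682 (0.974), and Xcl1 most like Klre1 (0.973), Samd3 (0.969) and Cd160 (0.963). Prf1 was most like Samd3 (0.973), Txk (0.965) and Klrc1 (0.959), and the genes most like Gzmb included Gm2682 (0.965) and Cd226 (0.960). Nkg7 was the gene whose list held another effector, Gzmb (0.957), followed by Ubash3a (0.955). Gzmc was most like Cd200r2 (0.913), Cpne7 (0.908) and Klra4 (0.902), and Gzmk most like Ccr4 (0.941), Gm48720 (0.937) and Themis (0.930). Fasl was most like Podnl1 (0.980), Gm33104 (0.978) and Gm20069 (0.955), and Ifng most like Gm20069 (0.970), Snai3 (0.969) and Camk4 (0.963). Tnfsf10 had the lowest leading value, with Arl4d (0.893), Tecpr1 (0.883) and Nlrc3 (0.882). These values describe 22 classes that share libraries and free RNA, and the lymphocyte classes are few among them.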

How the data were processed

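The authors deposited whole-number UMI counts of 8 libraries as 1 matrix of 55450 genes by 88581 barcodes, made with bcl2fastq 2.20 and Cell Ranger on GRCm38. The matrix header names Cell Ranger 4.0.0, which differs from the version in the study's methods. The suffix of a barcode gives the mouse, and no column was left unused. A barcode was kept if it had over 500 genes and if mitochondrial genes gave under 25% of its UMIs. Counts scaled to 10000 per cell and log-transformed were clustered without the 10 genes (2000 variable genes, 30 principal components, 20 neighbours, Leiden resolution 1.0, seed 1), which gave 40 clusters. A cluster was named where at least 3 markers were each found in a share of 0.1 of its cells with a mean z-score of 0.3. The name was withheld where the markers of another lineage scored within 0.5 of the best. By this second rule 5 clusters with 4983 cells took no name, as their best scores were 0.671 to 2.23. No doublet caller was run. Instead, 1277 of the gated cells (11.2%) with at least 2 UMIs of 10 genes of other lineages were left out as an alternative. A class needed 20 cells in a mouse.

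Counts summed per mouse and class were fitted in R 4.3.3 with the quasi-likelihood test of edgeR 4.0.16, on TMM-normalized libraries and genes that passed filterByExpr (minimum count 10), with group as the only term. DESeq2 1.42.0 was the other tool. Python 3.11.15, numpy 2.4.6, scipy 1.17.1, pandas 2.3.3, leidenalg 0.10.2 and igraph 0.11.9 were used. The tests were also run on simulated counts with the same spread between mice for every gene. Such counts cannot show how the tests fare with genes that vary more between mice, such as Gzma in T cells. Each p-value sets a difference between groups against the spread of mice within groups, over the 8 mice or those left in an alternative. All 10 genes are named, and from each of the 3 lists up to 3 called genes per class and comparison by size of fold change. The genes, lists and gates were chosen with earlier results of these data known. Of the genes these rules name, 2 enter the tests or lists and are not reported here. Free RNA was not removed, and no source used here says if reads were subsampled to combine the libraries. The alternatives were another tool, another normalization, no filter, a replicate block, other gates, stricter cells and leaving out each mouse. The gate in every cluster also left out the cells with at least 2 UMIs of other lineages, so these 2 alternatives are not separate.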

Additional observations from a re-analysis of the deposited data

Results flagged for a closer look

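Prf1 moved in opposite directions in T cells and NK cells of the HFD+F+CCl4 mice. Its log2 fold change against control was 2.02 in T cells, where all 3 HFD+F+CCl4 mice lay above both control mice, and -1.94 in NK cells, where all 3 lay below both. The difference between the 2 cell classes was not tested, and the T cell value did not pass by itself (adjusted p = 0.106 by edgeR). Among CD8 T cells Prf1 was at 36.1 and 53.9 CPM in control and at 48.7, 120.5 and 330 CPM in HFD+F+CCl4. Among CD4 T cells it was at 12.1 and 10.9 CPM and at 17, 12.65 and 7.88 CPM. So the groups overlapped within each kind of T cell, and these kinds were not tested. The NK cell call was lost in 6 of its 18 alternatives. Groups of 2 and 3 mice were too small for a test of single outlying mice.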

How the results depend on the processing

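Each count of called genes was recomputed under 18 alternatives. Xcl1 in NK cells in both models and Gzmc in NK cells in WD+F+CCl4 passed in all 18. Leaving out either control mouse left a single control, so the control spread could not be estimated. In NK cells this also held with the clusters kept apart and with more than 1000 genes per cell, where control replicate 2 had 9 cells. The other calls passed in 9 (Gzmk in T cells), 12 (Gzma and Prf1 in NK cells), 17 (Gzmc in NK cells in HFD+F+CCl4), 13 of 17 (Gzmc in NKT-like cells, too low to be tested with the clusters kept apart) and 16 (Xcl1 in NKT-like cells). Between HFD+F+CCl4 and control, in T cells 0 calls became 1 with DESeq2 (Gzmk), 5 with no filter on low counts and 1 with the gate on UMIs thinned to 800. Over all genes, 694 of 12394, 1660 of 24872 and 479 of 11490 were called there, against 548 of 12394 in the main fit. In NKT-like cells, 0 became 1 with no filter, where 461 of 21057 genes were called, against 234 of 6577 in the main fit. The thinned gate left a single HFD+F+CCl4 mouse with enough NKT-like cells. In NK cells, 4 became 2 with the thinned gate and 2 with the gate in every cluster, and Gzma and Prf1 were the calls lost in both. Of all genes, 138 of 4510 and 110 of 5180 were called there, against 219 of 6264 in the main fit. The gate in every cluster, which also left out cells with UMIs of another lineage, raised the NK cells of control replicate 2 from 56 to 146. Between WD+F+CCl4 and control, the single T cell call became 5 with no filter and 0 with CD3 at 1 UMI, without cells with UMIs of another lineage, and with more than 1000 genes per cell. Of all genes, 1614 of 24872, 477 of 12439, 337 of 12031 and 452 of 11911 were called there, against 534 of 12394. The 2 NKT-like calls became 1 (Xcl1) with DESeq2, with the gate in every cluster and without cells of another lineage. Over all genes 273 of 6577, 224 of 5960 and 208 of 5342 were called there, against 380 of 6577 in the main fit. The 2 calls became 0 with the clusters kept apart, which was chosen after seeing the data, where 313 of 6022 genes were called. With the thinned gate both were lost, and the log2 fold change of Gzma was 1.42. Gzmc in NKT-like cells reversed to -5.51 (adjusted p = 0.766 by edgeR) with the thinned gate, in which 5 mice remained. Between the models, 0 calls became 2 in T cells, 3 in NKT-like cells and 4 in NK cells with no filter. There 176 of 24872, 42 of 21057 and 56 of 18023 genes were called. With DESeq2, 0 became 1 in NKT-like and NK cells each, where 5 of 6577 and 1 of 6264 genes were called. In NK cells 0 became 1 with the thinned gate and without cells of another lineage, where 1 of 4510 and 1 of 4692 genes was called. The cause of these changes was not tested.

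Leaving out 1 mouse gave 0 to 1, 0 to 2 and 0 to 0 calls in T cells (HFD+F+CCl4 against control, WD+F+CCl4 against control, and between the models), 0 to 1, 2 to 2 and 0 to 1 in NKT-like cells, and 1 to 5, 2 to 2 and 0 to 1 in NK cells. The lowest count in NK cells was that without control replicate 1, where calls fell over all genes too.

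The correlations of same-numbered mice's deviations from their group means lay between -0.198 and 0.103. With so few mice per group, the deviations within a group are tied to each other. These correlations therefore cannot show whether mice with the same replicate number belong together. A replicate block gave 0 calls in T cells in WD+F+CCl4, where 108 of 12394 genes were called. It gave 1 in NKT-like cells between the models (Gzmc), where 6 of 6577 genes were called. The call of Gzma in NK cells in HFD+F+CCl4 was lost (adjusted p = 0.053 by edgeR). The block changed no other call.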
